A study of Mus musculus with 20 samples.

Results

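Aminoacyl-tRNA synthetases are the enzymes that attach each amino acid to its tRNA. The set described here holds the 36 nuclear genes chosen by symbol, 20 for enzymes of the cytosol and 16 for enzymes of the mitochondrion, whose symbols end in 2. They stand among 55367 genes listed in the count files. All 36 symbols were found, with the methionine enzyme of the cytosol, Mars, listed as Mars1, and all 36 passed the filter on low counts that left 16598 genes for testing.

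The libraries came from the left atrium or left ventricle of newborn C57BL/6J mice at postnatal day 4. Since birth the pups had breathed either 21% oxygen, called room air here, or 100% oxygen, called hyperoxia, and nursing dams were moved between both atmospheres each day. Each of the 4 groups, atrium in room air, atrium in hyperoxia, ventricle in room air and ventricle in hyperoxia, held 5 mice and 5 libraries. No allele or transgene is named in the labels. Replicate numbers below are those of the labels, which run from 1 to 5 except in the hyperoxic ventricle, where they are 1, 2, 4, 5 and 6. The chambers were separated by hand, and 2 different RNA kits are named for the same samples in the sources used here. Whether 1 mouse or litter gave libraries to several groups is not stated, so the p-values measure the spread between these libraries.

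Cells keep separate synthetases for the cytosol and the mitochondrion, apart from a few enzymes that serve both (Gars and Kars each make both forms from 1 gene). In the cytosol, 8 of the 20 genes here encode enzymes held in the multisynthetase complex (Dars, Eprs, Iars, Kars, Lars, Mars1, Qars and Rars), and Eprs carries 2 activities, for glutamate and proline, in 1 protein. Uncharged tRNA activates the kinase encoded by Eif2ak4, and phosphorylation of the initiation factor eIF2 by this and related kinases favours translation of the transcription factor encoded by Atf4. Many cytosolic synthetase genes are known targets of that factor, which binds with C/EBP partners to a composite element.

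The promoter windows with the letters of that element are shown because cytosolic members moved together in the atrium, as described further down. The motif searched was TGATGNAA on both strands, where N is any base, in the RefSeq windows of 250 bases before to 50 after each annotated start (GRCm38.p6). A window was given for 13 of the 20 cytosolic genes and 14 of the 16 mitochondrial genes. The letters were present in 5 of the 13 cytosolic windows and in 0 of the 14 mitochondrial genes' windows, against 3.97% of all 32851 windows and 2.27% of the 15464 windows whose gene was tested. The windows of Sars and Eprs, which had the smallest p in the atrium, did not hold them, and Cars and Nars had no window. Binding to these windows was not measured, and the part of the element in the atrial results was not tested. Each line gives 150 bases, from 130 before the start, 5′ to 3′ on the gene's strand, with the matches in capitals. Aars (chr8:111033712-111033861, plus strand) held a match beginning 112 bases before the start and another 9 bases after it. The matches in Gars (chr6:55037871-55038020, plus strand) and Tars (chr15:11399639-11399788, minus strand) began 30 and 15 bases before the start. Those in Iars (chr13:49682000-49682149, plus strand) and Yars (chr4:129189773-129189922, plus strand) began 7 and 3 bases after it. In Yars the letters read forward, and in the other 4 genes they read on the opposite strand.
Aars: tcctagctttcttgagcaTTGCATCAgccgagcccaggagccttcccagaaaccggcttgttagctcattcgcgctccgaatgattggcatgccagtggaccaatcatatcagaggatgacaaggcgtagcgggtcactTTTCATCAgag
Gars: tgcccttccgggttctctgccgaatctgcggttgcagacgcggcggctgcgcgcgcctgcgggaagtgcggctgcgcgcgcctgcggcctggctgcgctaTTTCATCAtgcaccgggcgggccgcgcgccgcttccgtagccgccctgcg
Iars: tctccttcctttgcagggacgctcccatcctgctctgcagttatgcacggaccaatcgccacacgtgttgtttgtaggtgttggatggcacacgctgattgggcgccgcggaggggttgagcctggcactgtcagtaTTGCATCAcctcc
Tars: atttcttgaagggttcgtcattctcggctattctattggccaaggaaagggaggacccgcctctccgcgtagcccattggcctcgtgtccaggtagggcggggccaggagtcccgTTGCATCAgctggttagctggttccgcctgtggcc
Yars: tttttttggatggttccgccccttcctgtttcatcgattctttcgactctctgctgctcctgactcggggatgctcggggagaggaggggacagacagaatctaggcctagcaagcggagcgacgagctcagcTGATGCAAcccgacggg

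Total counts ran from 26510081 to 38244117 per library. Marker genes matched the chamber labels: the 5 atrial cardiomyocyte genes summed to 17926 to 50198 CPM (counts scaled to the library's size) in the 10 atrial libraries and to 232 to 1944 CPM in the 10 ventricular ones. The 5 ventricular genes summed to 400 to 921 CPM in atria and 21039 to 41909 CPM in ventricles. In 3 libraries (hyperoxic atria 2 and 4 and room-air ventricle 4), long transcripts had lower values relative to short ones, with slopes of log2 CPM on log2 exon length of -0.29, -0.28 and -0.22 against their chamber's mean, and every other library was above -0.2. Y-linked reads exceeded Xist reads in all 10 room-air libraries but in only 1 of 5 hyperoxic atria (replicate 2) and 2 of 5 hyperoxic ventricles (replicates 2 and 6), so sex and oxygen level moved together in these data.

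In the left atrium, hyperoxia went with higher transcript levels of nearly the whole cytosolic set. Of its 20 genes, 19 rose and 0 fell (edgeR quasi-likelihood test, Benjamini-Hochberg adjusted p under 0.05 over all genes tested), and the median log2 difference was 0.93. Over all 16598 genes tested, 19.7% rose and 24.2% fell, with a median of -0.06. Summed over the 20 genes, the level was 1347 ± 48.7 CPM (SD, n = 5) in room-air atria and 2705 ± 233 CPM in hyperoxic atria. The lowest hyperoxic atrium stood at 2408 CPM and the highest room-air atrium at 1411 CPM. The 5 genes whose windows held the motif letters had log2 differences of 0.98 to 1.68, and the 8 cytosolic genes whose windows did not hold them ranged from -0.15 to 1.72.

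The mitochondrial set moved less. Of its 16 genes, 8 rose (Ears2, Fars2, Mars2, Nars2, Rars2, Tars2, Wars2 and Yars2) and 0 fell, with a median log2 difference of 0.29. Without Lars2, whose libraries spread widely, the other 15 genes summed to 341 ± 6.94 CPM in room-air atria and 417 ± 25 CPM in hyperoxic atria (SD, n = 5), and these ranges did not overlap either. The ratio of the cytosolic to this mitochondrial sum was 3.82 to 4.04 in the 5 room-air atria and 6.08 to 6.75 in the 5 hyperoxic ones. It was 3.09 to 3.59 in room-air ventricles and 3.01 to 3.41 in hyperoxic ventricles, so these 2 groups overlapped.

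**Figure D1:**
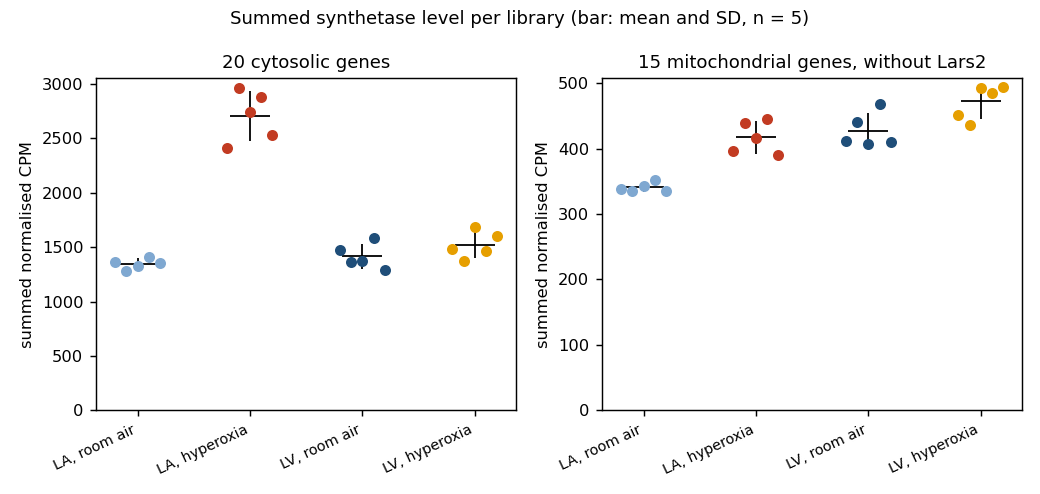
Summed CPM of the 20 cytosolic genes (left) and of 15 mitochondrial genes without Lars2 (right), 1 point per library, with a bar for the mean and SD of 5 libraries. Hyperoxic atria lie between 2408 and 2966 CPM in the left panel, above every other library, while in the right panel room-air atria, at 335 to 352 CPM, lie below every other library.

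Seen by single libraries, 19 of the 20 cytosolic genes had all 5 hyperoxic atria above all 5 room-air atria, as had 9 of the 16 mitochondrial genes (the 8 that rose and Pars2), against 13.6% of all genes tested. With only the libraries in which Y-linked reads exceeded Xist reads, 1 hyperoxic atrium was left, replicate 2, itself tilted towards short transcripts. It was assumed to vary like the other groups, fewer members passed, and these calls are not listed. Over all 32 alternatives, that fit included, the log2 difference was 1.44 to 1.97 for Sars, 0.16 to 0.30 for Farsa and -0.26 to -0.07 for Qars. Without the 3 libraries tilted towards short transcripts, hyperoxic atria 1, 3 and 5 were left, all with more Xist than Y-linked reads. There 19 cytosolic genes rose, and of the mitochondrial genes 8 rose and 1, Cars2, fell. Of all 17011 genes tested in that fit, 2907 rose and 3720 fell. Neither subset holds an untilted hyperoxic atrium with more Y-linked than Xist reads.

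Sars, which charges tRNA with serine, had the smallest p of the set. Its gene lies at chr3:108424865-108445209 (GRCm38, minus strand). The room-air atria 1 to 5 had 90.2, 84.0, 84.6, 90.7 and 91.0 CPM, and the hyperoxic atria 1 to 5 had 245, 346, 283, 322 and 254 CPM. All hyperoxic atria were thus far above a narrow room-air range, with replicates 2 and 4, the libraries tilted towards short transcripts, the highest. The log2 difference was 1.72 (SE 0.10, edgeR adjusted p = 5.65e-11), and it was 1.57 without the tilted libraries. In the ventricle it had 104, 101, 93.2, 121 and 89.7 CPM in room air and 114, 91.2, 114, 95.4 and 106 CPM in hyperoxia, which overlapped.

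Eprs, for glutamate and proline (chr1:185363044-185428360, plus strand), had 130, 119, 126, 126 and 123 CPM in room-air atria and 276, 323, 335, 305 and 326 CPM in hyperoxic atria. The lowest hyperoxic value, in replicate 1, was still well over the highest room-air value, and the log2 difference was 1.33 (SE 0.09, edgeR adjusted p = 2.16e-10).

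Gars, for glycine (chr6:55038007-55079500, plus strand), went from 119, 101, 113, 125 and 121 CPM to 298, 437, 354, 443 and 319 CPM. Here too replicates 2 and 4 were highest. The log2 difference was 1.68 (SE 0.13, edgeR adjusted p = 2.84e-09), the second largest of the 36 after Sars.

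Aars, for alanine (chr8:111033144-111057664, plus strand), stood at 112, 103, 109, 123 and 110 CPM in room-air atria. Its values in hyperoxic atria were 208, 259, 234, 220 and 204 CPM. That was a log2 difference of 1.02 (SE 0.09, edgeR adjusted p = 8.17e-09) with no overlap between groups. Of the exonic bases of Aars, 1326 of 9282 are shared with Exosc6 on the same strand, and how reads there were assigned is not given in the sources used here.

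Nars, for asparagine, had the tightest hyperoxic values of these 6 genes relative to their mean. They were 176, 180, 198, 192 and 188 CPM, against 96.1, 92.0, 95.6, 95.0 and 84.6 CPM in room-air atria. The log2 difference was 1.01 (SE 0.09, edgeR adjusted p = 1.61e-08).

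Cars, for cysteine (chr7:143557230-143600090, minus strand), had 33.8, 28.3, 28.7, 36.1 and 30.5 CPM in room-air atria and 68.5, 104, 73.3, 86.2 and 61.3 CPM in hyperoxic atria. The hyperoxic values were spread widely but did not reach down to the room-air ones. The log2 difference was 1.32 (SE 0.13, edgeR adjusted p = 5.02e-08).

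**Figure D2:**
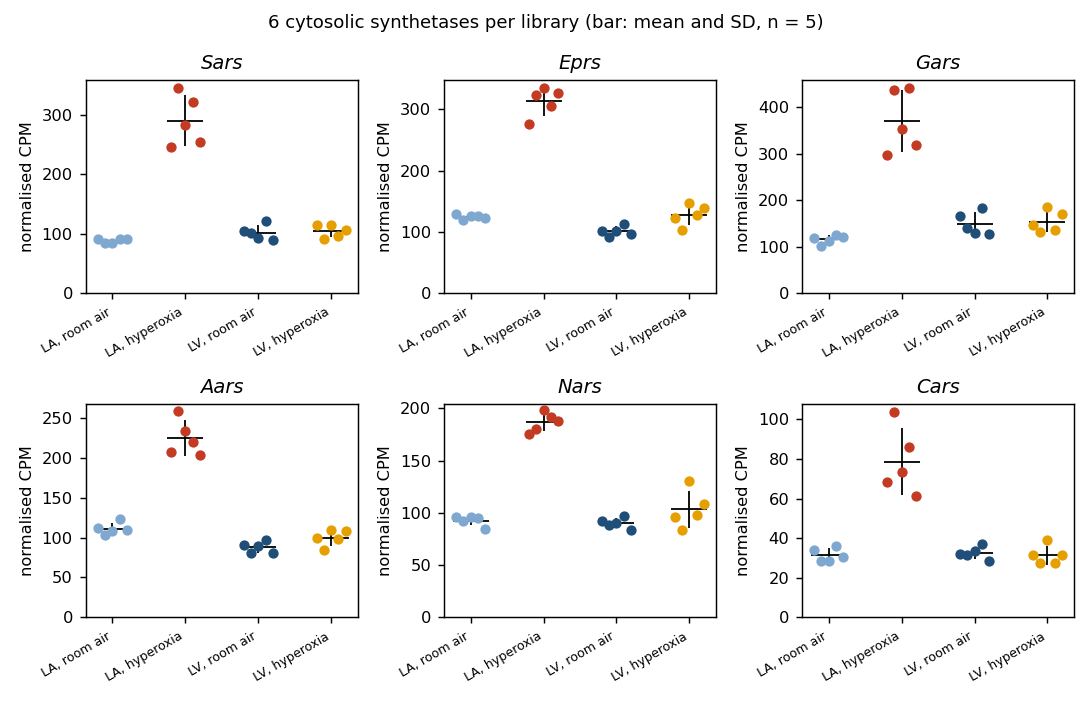
Normalised CPM of the 6 members with the smallest p in the atrium, 1 point per library in each of the 4 groups, with a bar for the mean and SD (n = 5). In each panel the 5 hyperoxic atria lie above the other 15 libraries, as for Sars, where they span 245 to 346 CPM and all other libraries 84.0 to 121 CPM.

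The 13 other cytosolic genes that rose spanned log2 differences of 0.23 (Farsa, for phenylalanine) to 1.02 (Iars, for isoleucine). Between them came Tars (threonine, 0.997), Yars (tyrosine, 0.98), Farsb (phenylalanine, 0.94), Lars (leucine, 0.91), Rars (arginine, 0.91) and Mars1 (methionine, 0.82). Smaller differences were found for Dars (aspartate, 0.54), Hars (histidine, 0.53), Kars (lysine, 0.49), Vars (valine, 0.42) and Wars (tryptophan, 0.27). Mars1 shares 68 of its 3423 exonic bases with Ddit3 on the opposite strand. In all, 13 of the 36 members share exonic bases with other genes. The library kit keeps the strand, but whether counting used it is not given in the sources used here. Ddit3 itself stood at 19.3 ± 2.60 CPM in room-air atria and 111 ± 51.7 CPM in hyperoxic atria (SD, n = 5).

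Qars, for glutamine, was the cytosolic gene that did not pass. Its room-air atria had 72.8, 75.3, 71.1, 79.9 and 74.1 CPM and its hyperoxic atria 67.2, 62.6, 68.6, 70.9 and 67.9 CPM. All 5 hyperoxic values were below all 5 room-air values by a small margin, and the log2 difference was -0.15 (SE 0.07, edgeR adjusted p = 0.0989).

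Farsa and Farsb encode the alpha and beta subunits of a single enzyme. Farsa had 34.6, 33.6, 33.5, 34.5 and 29.7 CPM in room-air atria and 37.3, 40.0, 41.1, 38.5 and 37.4 CPM in hyperoxic ones. The groups did not overlap, but the call for Farsa was lost without room-air atrium 5, the lowest library (log2 difference 0.19, edgeR adjusted p = 0.0569). It was also lost without the filter on low counts (edgeR adjusted p = 0.0893) and with the length slope as a term (0.0906). With the length slope and Y-linked reads together as terms, it was lost as well (0.156). Farsb had 44.9, 39.2, 38.5, 44.6 and 42.1 CPM in room-air atria and 65.1, 85.1, 79.1, 97.6 and 76.0 CPM in hyperoxic ones, all of them far above the room-air range. The ratio of Farsb to Farsa CPM, not corrected for length and so used only between libraries, was 1.15 to 1.42 in room-air atria and 1.74 to 2.54 in hyperoxic atria. In the ventricle it was 1.35 to 1.504 in room air and 1.45 to 2.22 in hyperoxia. This ratio was chosen after the values were seen and was not tested.

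The members were also counted by membership of the complex and by structural class, the 2 unrelated folds of these enzymes. In the complex 7 of 8 rose (median log2 difference 0.87), and outside it 12 of 12 rose (median 0.99). Of the cytosolic genes of class I, 8 of 9 rose (median 0.91), and of class II, 10 of 10 (median 0.97). Kars, whose class differs between domains of life, is in the second class here. Eprs joins one of each and is in neither count.

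Among mitochondrial genes the largest difference was that of Yars2, for tyrosine. Its room-air atria had 13.8, 13.2, 12.5, 13.3 and 11.5 CPM and its hyperoxic atria 22.5, 30.5, 23.1, 29.5 and 20.8 CPM, again with replicates 2 and 4 highest and no overlap. The log2 difference was 0.97 (SE 0.12, edgeR adjusted p = 9.74e-07) and 0.78 without the tilted libraries. Mars2 (methionine) and Tars2 (threonine) both rose by a log2 difference of 0.73.

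Fars2, for phenylalanine, had 32.6, 30.8, 27.9, 35.1 and 33.5 CPM in room-air atria and 38.8, 63.3, 43.9, 69.4 and 42.2 CPM in hyperoxic ones. The tilted replicates 2 and 4 held its 2 highest values. Its log2 difference of 0.69 was 0.38 without the tilted libraries, where it still passed (edgeR adjusted p = 0.000950). Ears2, for glutamate, moved in the same way, from 0.49 with all libraries to 0.28 without the tilted ones (edgeR adjusted p = 0.0175). With the length slope and Y-linked reads together as terms, both calls were lost, at 0.17 for Fars2 (edgeR adjusted p = 0.185) and 0.20 for Ears2 (edgeR adjusted p = 0.224).

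The other mitochondrial genes that rose were Rars2 (arginine, log2 difference 0.57), Wars2 (tryptophan, 0.47) and Nars2 (asparagine, 0.36). The call for Nars2 was lost with Y-linked reads as a term in the fit (log2 difference 0.22, edgeR adjusted p = 0.212). Mitochondrial genes that did not pass were Aars2 (0.21), Pars2 (0.18), Vars2 (0.15), Sars2 (0.03), Hars2 (0.02), Iars2 (-0.14), Cars2 (-0.17) and Lars2 (-0.63). Pars2, for proline, had 5.13 to 6.12 CPM in room-air atria and 6.21 to 6.90 CPM in hyperoxic atria, which did not overlap, with an edgeR adjusted p of 0.336. A scaling by upper quartiles let Aars2 and Vars2 pass too (edgeR adjusted p = 0.0368 and 0.0452).

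Set side by side by amino acid, the cytosolic gene had the larger log2 difference in 15 of 17 pairs. The widest gap was for serine, with 1.72 for Sars and 0.03 for Sars2, whose levels were 13.0 ± 1.52 CPM in room-air and 13.2 ± 1.82 CPM in hyperoxic atria (SD, n = 5). Leucine followed, with 0.91 for Lars and -0.63 for Lars2 (0.18 without room-air atrium 5), and then cysteine, with 1.32 for Cars and -0.17 for Cars2. For tyrosine the values of both genes were nearly equal, 0.98 and 0.97. The exceptions were Farsa against Fars2 (0.23 and 0.69) and Wars against Wars2 (0.27 and 0.47). The differences within pairs were not tested.

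**Figure D3:**
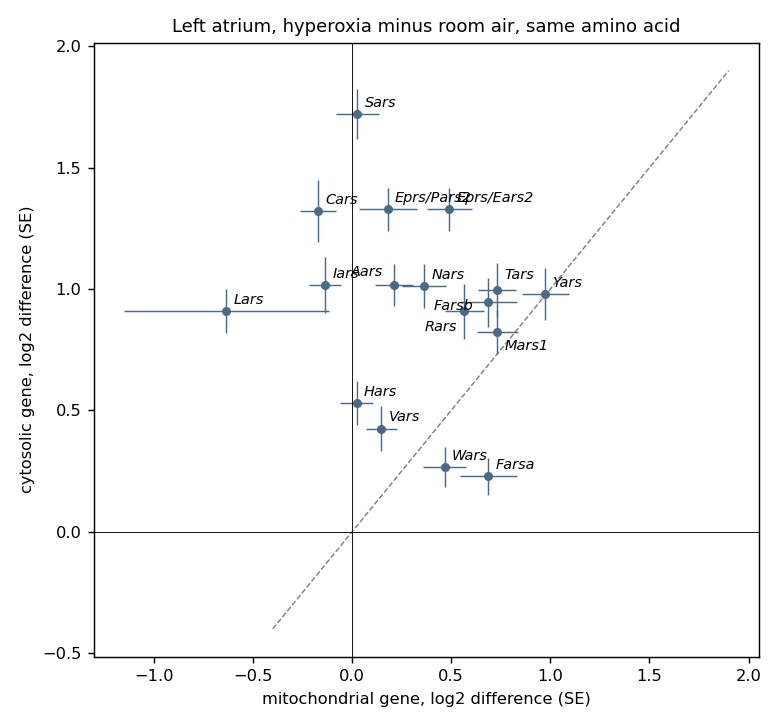
Log2 difference (hyperoxia minus room air, left atrium) of the cytosolic gene (vertical) against that of the mitochondrial gene for the same amino acid (horizontal), with standard errors. Of the 17 pairs, 15 lie above the dashed line of equal values, Sars farthest from it, and the points for Wars and Farsa lie below it.

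Lars2, for leucine in the mitochondrion, varied 8.38-fold between libraries, from 126 to 1055 CPM. In room-air atria it had 147, 155, 126, 211 and 766 CPM, and in hyperoxic atria 128, 164, 151, 323 and 139 CPM. The ventricles had 1055, 297, 338, 532 and 407 CPM in room air and 238, 828, 408, 249 and 241 CPM in hyperoxia. Single libraries stood far above the rest in each group, and Lars2 passed in none of the 5 comparisons. Its log2 difference in the atrium was -0.63 with all libraries and 0.18 without room-air atrium 5.

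CT010467.1, annotated as an rRNA, followed Lars2 over the 20 libraries, an observation made after the values were seen. The 3 highest libraries were the same for both, namely room-air ventricle 1 (13201 CPM of CT010467.1), hyperoxic ventricle 2 (12180 CPM) and room-air atrium 5 (9840 CPM). The ratio of CT010467.1 to Lars2 CPM stayed between 12.3 and 17.5 in all 20 libraries. Exact stretches of at least 20 bases between transcripts of Lars2 and CT010467.1 were not found, and Lars2 shares 1 stretch of 52 bases with Gm15564, which also had its 3 highest values in these libraries. What part rRNA plays in the Lars2 counts was not tested.

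Levels between genes are compared per kilobase of the longest principal transcript. In room-air atria the cytosolic genes ranged from 9.77 (Cars) to 52.1 (Kars) CPM per kb, and mitochondrial genes other than Lars2 from 0.910 (Mars2) to 15.8 (Iars2) CPM per kb. Mars2 has the longest transcript of the 36, with 11294 bases. Not corrected for length, its mean of 10.3 CPM was above those of Pars2 (5.76), Nars2 (7.99) and Wars2 (9.14). In hyperoxic atria Gars was the highest of the 36 at 156 CPM per kb, ahead of Sars at 81.3 CPM per kb and Kars at 73.0 CPM per kb. Sars had been at 24.7 CPM per kb in room-air atria, below Eprs at 25.4 CPM per kb.

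The ventricle showed few differences. In hyperoxic against room-air ventricles, 2 cytosolic genes (Iars and Eprs) and 2 mitochondrial genes (Mars2 and Iars2) rose and 0 fell, where 5.64% of all genes tested rose and 5.28% fell. The median log2 difference was 0.05 for the cytosolic and 0.07 for the mitochondrial set. None of these 4 calls held with Y-linked reads as a term in the fit, where the log2 differences were 0.44 for Iars, 0.30 for Eprs, 0.42 for Mars2 and 0.27 for Iars2. Nor did any hold with only the libraries in which Y-linked exceeded Xist reads, where they were 0.44, 0.26, 0.46 and 0.28. With the length slope as a term, 7 cytosolic and 5 mitochondrial genes passed, Aars, Farsb, Lars, Mars1, Tars, Fars2, Rars2 and Yars2 in addition to the 4. Over all 16598 genes tested, 1813 passed in the main fit, 240 with Y-linked reads as a term and 2037 with the length slope. With only the libraries in which Y-linked exceeded Xist reads, 277 of 18140 genes passed.

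Mars2, for methionine in the mitochondrion, had the smallest p in the ventricle. It had 13.0, 15.6, 14.6, 15.2 and 13.8 CPM in room air and 19.7, 17.8, 22.7, 19.5 and 22 CPM in hyperoxia, without overlap (log2 difference 0.50, SE 0.11, edgeR adjusted p = 0.00666). Iars2, for isoleucine, had 75.5, 85.0, 79.2, 70.8 and 83.8 CPM against 86.4, 91.8, 111, 111 and 100 CPM, the lowest hyperoxic value just over the highest room-air one (log2 difference 0.34, SE 0.08, edgeR adjusted p = 0.0120).

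Iars, the cytosolic isoleucine enzyme, had 68.8, 58.5, 62.0, 47.5 and 52.9 CPM in room-air ventricles and 75.7, 77.1, 98.8, 71.5 and 80.8 CPM in hyperoxic ones. Those groups did not overlap (log2 difference 0.48, SE 0.11, edgeR adjusted p = 0.0132). Eprs had 102, 92.2, 101, 113 and 97.0 CPM against 122, 103, 147, 127 and 139 CPM, and here hyperoxic ventricle 2 lay within the room-air range (log2 difference 0.34, SE 0.09, edgeR adjusted p = 0.0185). The call for Eprs was lost without hyperoxic ventricle 4 (adjusted p = 0.0522), hyperoxic ventricle 6 (adjusted p = 0.0505) or room-air ventricle 2 (adjusted p = 0.0513), each by edgeR.

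The atrial response exceeded the ventricular one for most of the cytosolic set when the difference itself was tested. Of the 20 cytosolic genes 18 had a higher response in the atrium and 0 a lower one, and of the 16 mitochondrial genes 5 had a higher (Ears2, Fars2, Tars2, Wars2 and Yars2) and 1 a lower response. Among all genes tested 17.0% had a higher and 19.5% a lower response in the atrium. Medians of this difference were 0.73 for cytosolic, 0.15 for mitochondrial and -0.06 for all genes tested, on the log2 scale. The largest were those of Sars at 1.69 (SE 0.14, edgeR adjusted p = 5.71e-08) and Gars at 1.63 (SE 0.18, edgeR adjusted p = 1.68e-06). Cars (1.37), Eprs (0.99), Aars (0.83) and Nars (0.82), the others with the smallest p, complete the 6 whose atrial values are given above.

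The same 6 genes in the ventricle showed overlap between oxygen levels. Gars had 166, 139, 130, 184 and 127 CPM in room-air ventricles and 147, 131, 186, 136 and 170 CPM in hyperoxic ones. Aars had 90.7, 81.2, 89.8, 96.7 and 80.7 CPM against 99.4, 84.8, 109, 97.9 and 109 CPM. For Nars, 91.9, 88, 89.9, 97.3 and 83.9 CPM stood against 96.4, 83.7, 130, 97.9 and 108 CPM. Cars had 32.1, 31.5, 33.5, 36.8 and 28.3 CPM against 31.7, 27.3, 39, 27.5 and 31.7 CPM. Those 4 genes did not pass in the ventricle, nor did Sars.

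Vars (0.33, edgeR adjusted p = 0.0562) and Qars (-0.19, edgeR adjusted p = 0.150) were the cytosolic genes whose difference of responses did not pass. Iars2 was the member with a lower response in the atrium (-0.48, SE 0.11, edgeR adjusted p = 0.00288). Of its 8885 exonic bases, 2034 are shared with Rab3gap2 on the opposite strand, and the part of such reads was not tested. Iars2 had 83.3, 84.3, 89.2, 87.7 and 88.7 CPM in room-air atria and 84.0, 71.5, 84.4, 73.3 and 80.9 CPM in hyperoxic atria, where groups overlapped. With the length slope of each library as a term in the fit, 14 cytosolic genes and 1 mitochondrial gene differed in response, in place of 18 and 6, and that 1 gene was Cars2, with a lower response in the atrium (-0.41, edgeR adjusted p = 0.0267). Over all 16598 genes tested, 2632 differed in response in that fit, in place of 6060.

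**Figure D4:**
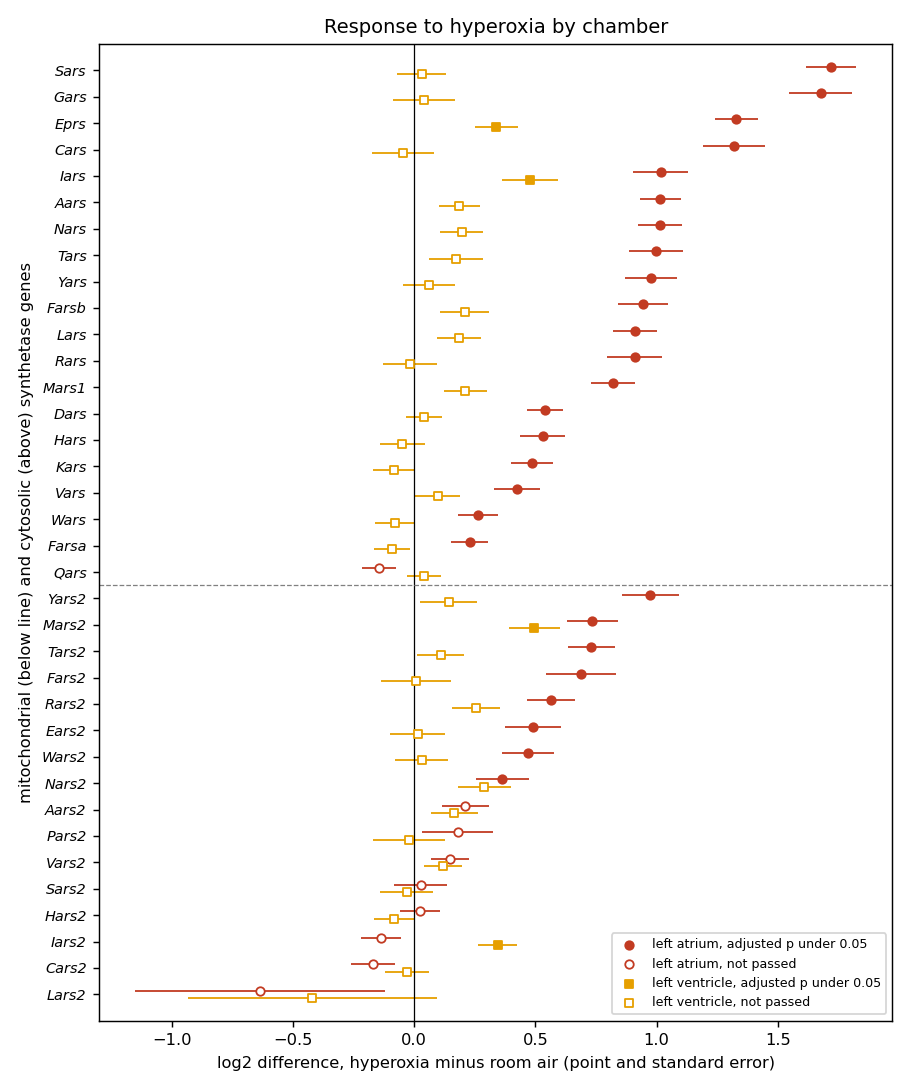
Log2 difference between hyperoxia and room air with its standard error for the 36 members in the left atrium (circles) and left ventricle (squares), filled where the adjusted p was under 0.05, mitochondrial genes below the dashed line. Atrial points of the cytosolic genes run from -0.15 to 1.72, and ventricular points of the same genes from -0.09 to 0.48.

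Between chambers in room air, the mitochondrial set was lower in the atrium. Of its 16 genes 10 were lower and 0 higher than in the ventricle (median log2 difference -0.42). The cytosolic set was mixed, with 3 higher (Aars, Eprs and Qars), 6 lower (Dars, Farsa, Farsb, Gars, Kars and Rars) and a median of -0.08. Over all genes tested 28.7% were higher and 26.3% lower in the atrium, with a median of 0.03. All mitochondrial genes that were lower had log2 differences between -1.13 and -0.24. They were Aars2, Ears2, Fars2, Hars2, Mars2, Nars2, Rars2, Sars2, Tars2 and Yars2.

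Ears2 had the largest and most distinct chamber difference in room air. Its atria had 13.3, 14.2, 14, 15.4 and 16.5 CPM and its ventricles 29.5, 31.4, 29.0, 38.1 and 33.0 CPM, a log2 difference of -1.13 (SE 0.12, edgeR adjusted p = 3.19e-08). Dars, for aspartate in the cytosol, was very even among atria, with 47.8, 47.1, 47.5, 47.4 and 46.3 CPM against 66.3, 63.6, 66.0, 76.9 and 67.6 CPM in ventricles (log2 difference -0.53, SE 0.08, edgeR adjusted p = 4.24e-06). In Yars2, the ventricles had 20.8, 22.6, 21.4, 27.2 and 20.6 CPM, above all the room-air atria given earlier (log2 difference -0.81, SE 0.12, edgeR adjusted p = 5.89e-06).

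Tars2 had 28.8, 27.6, 30.6, 33.3 and 26.9 CPM in room-air atria and 44.9, 38.9, 38.4, 47.4 and 36.7 CPM in ventricles, also without overlap (log2 difference -0.49, SE 0.10, edgeR adjusted p = 0.000255). Mars2 had 10.9, 10.6, 11.7, 8.64 and 9.53 CPM in room-air atria, below all 5 room-air ventricles (log2 difference -0.49, SE 0.11, edgeR adjusted p = 0.000521). Aars2, for alanine, completed the 6 genes with the smallest p. It had 22.7, 23.2, 22.7, 22.1 and 19.8 CPM in room-air atria and 30.1, 35.5, 33.5, 34.9 and 32.8 CPM in ventricles, without overlap (log2 difference -0.59, SE 0.10, edgeR adjusted p = 2.56e-05).

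The tilted room-air ventricle 4 had the highest room-air ventricular value of Ears2, Dars, Yars2 and Tars2. Without the tilted libraries 10 mitochondrial genes passed, and 12 cytosolic ones. In that fit 9728 of all 17011 genes tested passed, 5124 of them higher and 4604 lower in the atrium. The calls for Gars, Kars and Rars were lost with the length slope as a term in the fit, with edgeR adjusted p of 0.280, 0.111 and 0.135, as were those for Hars2 and Rars2, with 0.0535 and 0.0989. Cell type markers differed between the chambers as well. In room air, 6 of 6 fibroblast markers were higher in the atrium (sums of 3058 to 3738 against 1361 to 2073 CPM), as were 5 of 5 macrophage markers (123 to 138 against 59.2 to 75.7 CPM). Lower were 4 of 6 endothelial markers (838 to 1006 against 1512 to 1837 CPM) and 2 of 4 general cardiomyocyte markers (17821 to 23605 against 23018 to 32882 CPM). Their part in the chamber difference of the synthetases was not tested.

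In hyperoxia most cytosolic genes were higher in the atrium than in the ventricle. There 16 of the 20 cytosolic genes were higher in the atrium and 0 lower (median log2 difference 0.64), while 1 mitochondrial gene (Wars2) was higher and 6 were lower (Aars2, Cars2, Ears2, Iars2, Nars2 and Sars2; median -0.20). The call for Wars2 (0.27, edgeR adjusted p = 0.0407) was lost in 15 of 33 alternatives, among them leaving out any 1 of 8 libraries (hyperoxic atria 1, 2, 3 and 5 and hyperoxic ventricles 1, 2, 5 and 6), at 0.24 to 0.28. Its call for the difference of responses was lost in 13 of 32. Over all genes tested, 25.2% were higher and 23.6% lower. This comparison shares its hyperoxic atria with the response of the atrium. The smallest p were those of Eprs (log2 difference 1.29), Sars (1.48), Aars (1.17), Cars (1.32), Gars (1.27) and Tars (1.05), and in each the 5 hyperoxic atria lay above the 5 hyperoxic ventricles, whose values are given above for the first 5. Tars, for threonine, had 97.5, 135, 113, 126 and 108 CPM in hyperoxic atria and 52.7, 46.1, 72.2, 50.7 and 58.1 CPM in hyperoxic ventricles (SE 0.11, edgeR adjusted p = 5.58e-08).

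Ears2 remained lower in hyperoxic atria, with 16.9, 24.2, 19.5, 25.6 and 17.0 CPM against 32.4, 29.3, 31.0, 33.8 and 36.2 CPM in hyperoxic ventricles (log2 difference -0.66, SE 0.11, edgeR adjusted p = 5.14e-05). Over all 33 alternatives its log2 difference ran from -0.90 to -0.44. With only the libraries in which Y-linked exceeded Xist reads, 1 hyperoxic atrium was left, and fewer members passed than with all libraries.

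**Figure D5:**
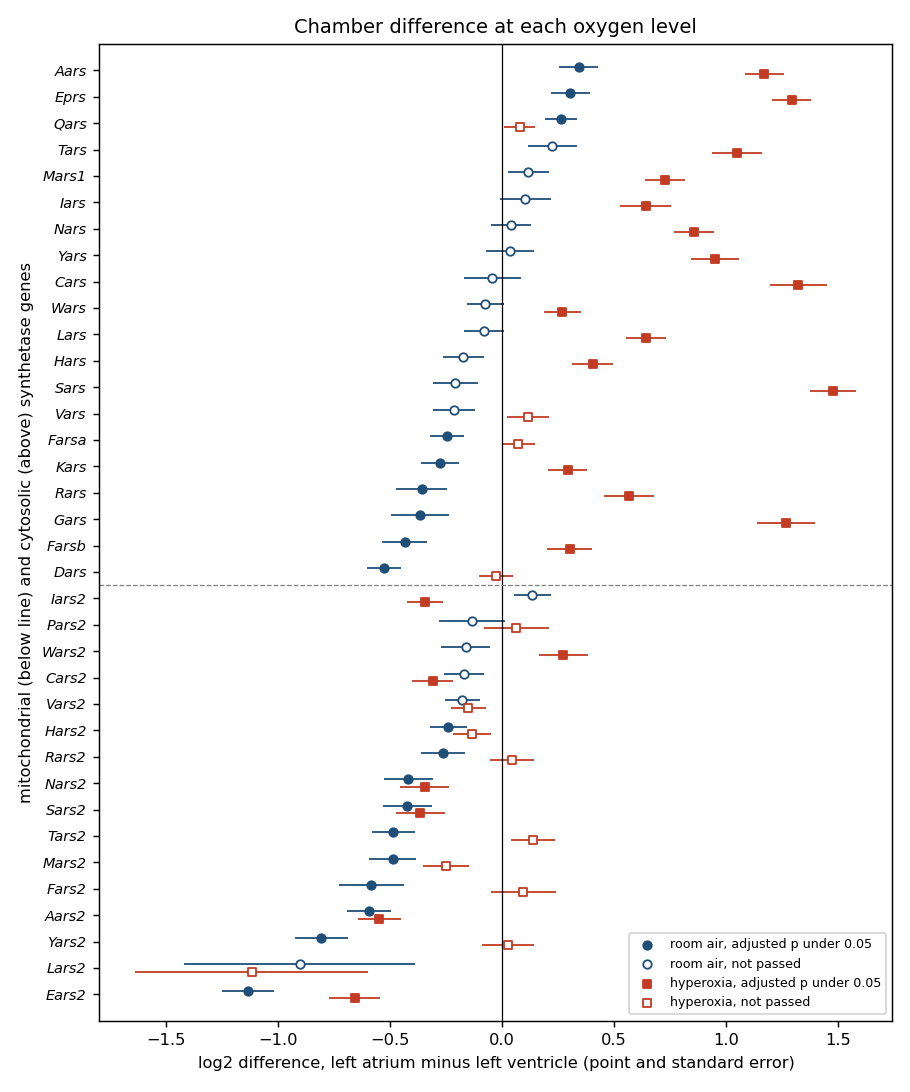
Log2 difference between left atrium and left ventricle with its standard error for the 36 members in room air (circles) and hyperoxia (squares), filled where the adjusted p was under 0.05, mitochondrial genes below the dashed line. Room-air points of mitochondrial genes reach from 0.14 (Iars2) down to -1.13 (Ears2), and hyperoxia points of cytosolic genes run from -0.03 (Dars) to 1.48 (Sars).

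Genes that work with the synthetases were followed through lists chosen by function. The 3 scaffold proteins of the multisynthetase complex all rose in hyperoxic atria, with log2 differences of 1.33 for Eef1e1, 0.92 for Aimp2 and 0.80 for Aimp1, and 0 of 3 passed in the ventricle. Of 9 genes of tRNA maturation and export 7 rose in the atrium and 0 fell (median 0.74). They include Xpot, the tRNA exporter, at 53.5 ± 1.78 CPM in room-air and 104 ± 8.63 CPM in hyperoxic atria (SD, n = 5; log2 difference 0.96, edgeR adjusted p = 1.53e-09). Nsun2, a tRNA methyltransferase, rose by a log2 difference of 0.72, and Elac2, which trims the 3′ end of tRNA precursors, by 0.75.

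Of the 20 genes for ATF4-related factors and non-synthetase targets, 19 rose in the atrium and 0 fell, with a median log2 difference of 1.59. In the ventricle 6 rose and 1 fell, with a median of 0.20. Sesn2, a stress-induced regulator of nutrient signalling, rose in the atrium from 6.83 ± 0.645 to 39 ± 4.49 CPM (log2 difference 2.51, edgeR adjusted p = 3.11e-12). Trib3, a pseudokinase, rose by a log2 difference of 4.76 and Asns, asparagine synthetase, by 4.95. These 3 genes rose in the ventricle as well, by 0.65, 1.03 and 1.08. The list was chosen with earlier results of these data known, so its count is no independent evidence of direction.

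Among 8 genes for eIF2 kinases and their partners, 1 rose in the atrium and 0 fell, with a median of -0.03. The one that rose was Ppp1r15a, whose product directs removal of the phosphate from eIF2, at 55.5 ± 7.57 CPM in room-air and 145 ± 15 CPM in hyperoxic atria (SD, n = 5; log2 difference 1.39, edgeR adjusted p = 6.54e-09). The kinase gene Eif2ak3 had a log2 difference of -0.41 (edgeR adjusted p = 0.0617) and Eif2ak1 one of -0.11 (edgeR adjusted p = 0.316). In the ventricle 0 of the 8 passed.

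On the mitochondrial side, 8 of 9 translation factors rose in the atrium and 0 fell (median 0.34), among them the elongation factor gene Gfm1 (0.40), Mrrf (0.57) and Tsfm (0.58). Of 4 partners in mitochondrial charging 2 rose, Qrsl1 (0.92) and Gatb (0.59), both subunits of the enzyme that makes glutaminyl-tRNA there, and the third subunit, Gatc, had a log2 difference of -0.11 (edgeR adjusted p = 0.247). The threonine paralog Tarsl2, which is not in the set, had a log2 difference of 0.09 in the atrium and did not pass (edgeR adjusted p = 0.504). Among genes for proofreading and release of tRNA, Prorsd1 rose (0.59), and Ptrh2 had 0.30 without passing. Of 5 genes for charging and use of selenocysteine 3 rose: Sephs2 (0.46), Eefsec (0.32) and Pstk (0.62).

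Marker genes of several cell types moved with oxygen in the atrium, and in bulk tissue fewer cells of a type cannot be told apart from less RNA per cell. Of 6 endothelial markers 6 fell, with sums of 838 to 1006 CPM in room-air and 495 to 726 CPM in hyperoxic atria. Of 6 fibroblast markers 5 fell and 1 rose (3058 to 3738 against 1548 to 2130 CPM), and of 4 smooth muscle and pericyte markers 3 fell and 1 rose (845 to 972 against 635 to 824 CPM). Macrophage markers rose in 3 of 5 (123 to 138 against 159 to 217 CPM) and epicardial markers in 2 of 4 (227 to 361 against 385 to 423 CPM). The 4 general cardiomyocyte markers, 2 of which fell, overlapped between groups in sum. Of the 5 atrial cardiomyocyte markers 1 rose and 1 fell, with sums of 17926 to 23084 CPM in room air and 26030 to 50198 CPM in hyperoxia, and of the 5 ventricular ones 3 fell and 1 rose (479 to 921 against 400 to 795 CPM). Of 3 mast cell markers 1 fell (52.4 to 87.3 against 17.8 to 44.0 CPM), and of 3 proliferation markers 2 fell (382 to 484 against 276 to 434 CPM). In the ventricle 2 of 5 atrial cardiomyocyte markers fell, with sums of 1033 to 1944 CPM in room air and 232 to 858 CPM in hyperoxia. Of 6 endothelial markers 3 fell there (1512 to 1837 against 1262 to 1462 CPM). Of 4 erythroid markers 1 fell (1518 to 2479 against 802 to 1101 CPM), as did 1 of 3 mast cell markers (41.8 to 56.5 against 33.2 to 41.3 CPM). Sums of general cardiomyocyte, fibroblast and macrophage markers overlapped there. Every marker listed for these types had counts in each group. Their part in the synthetase results was not tested.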

How the data were processed

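Polyadenylated RNA of 20 libraries was sequenced with a stranded kit, per the labels' protocols. The authors deposited raw counts per gene; fastp 0.20.1, STAR 2.7.6a, Subread 2.0.1 with featureCounts, Salmon 1.3.0 and the build GRCm38.p6 are named in the submitters' processing notes. The annotation and strand setting of the counting are not given in the sources used here. Each library had 26510081 to 38244117 counts, and no library pair of a group agreed within sampling noise.

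Counts were filtered with filterByExpr (16598 genes kept) and fitted in edgeR 4.0.16 (R 4.3.3) with TMM scaling, 1 coefficient per group over all 20 libraries and robust quasi-likelihood tests, with Benjamini-Hochberg adjusted p under 0.05 over all genes tested. Standard errors come from the F statistic. CPM use TMM-scaled library sizes. The fit was tested on simulated data. Per comparison, library values are given for the up to 6 members with the smallest p among those passing, plus members singled out after their values were seen (Qars, Farsa, Farsb, Pars2, Lars2, and Fars2, Yars2, Iars2 and Ears2 where outside the 6). Related lists are given by counts, medians and up to 3 genes. Some results of 2 of these lists are not reported here. Members and lists were chosen with earlier results of these data known. Positions are from GENCODE M21 (GRCm38), promoter windows from RefSeq (GRCm38.p6). Alternatives covered scaling, filters, DESeq2 1.42.0, covariates, subsets of libraries, a replicate block and leaving out each library.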

Additional observations from a re-analysis of the deposited data

Results flagged for a closer look

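In 7 of the 144 sets of 5 libraries (36 members in 4 groups), 1 library stood apart from the other 4 by Dixon's criterion, which chance meets in about 1 of 20 sets. Farsa was low in room-air atrium 5 (29.7 CPM, the other libraries 33.5 to 34.6 CPM) and high in room-air ventricle 4 (44.8 CPM, the others 36.6 to 38.8 CPM). Kars was high in room-air atrium 4 (118 CPM, the others 98.4 to 103 CPM). Vars2 was low in room-air ventricle 5 (23.8 CPM, the others 28.6 to 29.3 CPM). Lars2 was high in room-air atrium 5 (766 CPM, the others 126 to 211 CPM), hyperoxic atrium 4 (323 CPM, the others 128 to 164 CPM) and hyperoxic ventricle 2 (828 CPM, the others 238 to 408 CPM).

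For 24 members the response to hyperoxia differed between the chambers by the edgeR test of the difference itself. Among the 18 cytosolic genes, the atrial minus ventricular log2 difference was 1.69 for Sars, 1.63 for Gars, 1.37 for Cars, 0.99 for Eprs, 0.93 for Rars, 0.92 for Yars, 0.83 for Aars, 0.82 for Tars and 0.82 for Nars. It was 0.74 for Farsb, 0.72 for Lars, 0.61 for Mars1, 0.58 for Hars, 0.57 for Kars, 0.54 for Iars, 0.50 for Dars, 0.34 for Wars and 0.32 for Farsa. Among the 6 mitochondrial genes it was 0.83 for Yars2, 0.68 for Fars2, 0.62 for Tars2, 0.48 for Ears2, 0.44 for Wars2 and -0.48 for Iars2.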

How the results depend on the processing

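In the atrium, 17 to 19 cytosolic genes passed under every alternative, and 20 of the 27 members that passed did so in all 32. Of the members passing, 0 of 4 held under all alternatives in the ventricle, 11 of 24 for the difference of responses, 12 of 19 between chambers in room air and 15 of 23 in hyperoxia. With length slope and Y-linked reads together as terms, 4 mitochondrial genes passed in the atrium in place of 8, with Ears2, Fars2, Nars2, Rars2 and Wars2 lost and Aars2 gained. Over all 16598 genes tested, 4534 passed in that fit, in place of 7291. In the ventricle 2 cytosolic and 2 mitochondrial genes passed, where 1813 of all 16598 genes tested did. With the length slope as a term the counts were 7 and 5, and 2037 over all genes. With Y-linked reads as a term they were 0 and 0, and 240 over all genes. With only libraries whose Y-linked exceeded Xist reads they were 0 and 0, and 277 of 18140 genes tested. In the ventricle 6 cytosolic genes passed without the tilted libraries (3305 of 17011 genes tested), and 1 mitochondrial gene with both terms (1042 of 16598). Leaving out 1 library at a time gave 1 to 2 cytosolic and 2 to 4 mitochondrial genes in the ventricle (926 to 2527 over all genes). The lower cytosolic count came without hyperoxic ventricle 4, hyperoxic ventricle 6 or room-air ventricle 2. The 4 mitochondrial genes passed without hyperoxic ventricle 2. For the difference of responses, 1 mitochondrial gene passed in place of 6 with the length slope as a term, alone or with Y-linked reads. Over all 16598 genes tested, 2632 passed with the length slope and 2596 with both terms, in place of 6060. Between chambers in hyperoxia, the fit with only libraries whose Y-linked exceeded Xist reads leaves 1 hyperoxic atrium. Its calls, fewer than with all libraries, are not listed. Fars2 changed sign in the difference of responses, to -0.032 with the length slope and -0.086 with both terms, and between chambers in hyperoxia, to -0.27, to -0.31 and, without the tilted libraries, to -0.21. Yars2 went to -0.23 there with both terms. The cause of these changes was not tested. In the room-air chamber comparison, Lars2 passed without room-air atrium 5 (log2 difference -1.72). With the label number as a replicate block, 19 cytosolic and 8 mitochondrial genes passed in the atrium (7759 of all 16598 genes tested). In that fit 2 and 2 passed in the ventricle (2596 of all genes) and 19 and 5 for the difference (6890). With the number within each oxygen level as the replicate block, 16 and 5 passed for the difference (6185 of all 16598 genes tested). There Iars (edgeR adjusted p = 0.0754), Wars (0.0568) and Wars2 (0.121) were lost. Between chambers, 10 and 10 passed in room air (8965 of all genes) and 16 and 6 in hyperoxia (7420), where Wars2 was lost (0.198). Correlations of deviations between atrium and ventricle of the same number ran from -0.06 to 0.57 in room air, with 3 of 5 atria correlating best with their own number, and from 0.01 to 0.25 in hyperoxia, with 1 of 4. Not every pair exceeded 0.1, so the number was not taken as pairing. In hyperoxia, Y-linked reads exceeded Xist reads in both chambers for number 2 and in neither for numbers 1, 4 and 5. Whether a number marks 1 mouse was not settled. Depth limits few members: Pars2, the thinnest, had 91 to 284 counts per library.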
